A study of Danio rerio with 16 samples.

Results

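The comparison described here set *fbn3* mutant zebrafish embryos (called MT) against wild-type (WT) embryos at 1 day post fertilization (dpf), across all genes of a merged table of gene counts. Its members were chosen by their labels. They were 3 MT libraries with the genotype *fbn2b* -/- and 4 WT libraries with the genotype *fbn2b* +/+, which is 7 of the 15 libraries with a matching column in the table. Another WT sample of 1 dpf (replicate 3) had no column under its own name and was not used. Each library holds the RNA of a pool of 10 intact embryos, so every tissue contributed to every value. The mutant line carries a small frameshift deletion made with CRISPR/Cas9, and the MT embryos are of this 1 line. The study calls the WT embryos siblings of the mutants, which at this age are told apart by atrophy of the fin fold. The labels give no severity of the pooled embryos and no clutch, and nothing in them says whether pools of 1 group came from separate crosses, so *P* values measure the spread between these pools.

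Fibrillins are large secreted glycoproteins that assemble into microfibrils, the threads that carry elastin in elastic tissue and that hold growth factors of the TGF-beta family in store in the matrix. In the zebrafish embryo, fibrillin is known above all from the fin fold, the thin skin flap along the trunk and tail, whose stiff fibers of actinotrichia and cross fibers keep it extended. At 1 dpf the tail has nearly completed segmentation into somites, the first muscle fibers contract, the heart has started to beat, and the embryo lives on its yolk. The gene that the study calls *fbn3* is named *fbn2b* in the table (ENSDARG00000098237), and the study's *fbn2* is *fbn2a* (ENSDARG00000051896). The table pairs identifiers with symbols and gives no positions.

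The sequence that made the mutant group is the Cas9 guide against *fbn3*. It is shown because all MT libraries share the lesion it made. It is written 5′ to 3′. The capitals mark the 10 bases at its 3′ end, which in Cas9 guides lies next to the PAM:
fbn3 guide: tgcgagagcgGATGTCAGAA

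The mutated gene was measured first. *fbn2b* had 19.5, 23.4, and 28.7 CPM (counts relative to the total of the library, on the usual CPM scale, with TMM scaling) in the MT libraries, against 103, 166, 170, and 337 CPM in the WT libraries. Every MT library lay below every WT library, and WT libraries differed from each other more than the MT libraries did. The means were 23.9 ± 4.65 CPM in MT and 194 ± 100 CPM in WT (SD, n = 3 and n = 4 libraries). *fbn2b* fell by 3.02 on the log2 scale (SE 0.31, FDR = 0.0015, edgeR quasi-likelihood test), an 8.11-fold difference. Transcripts of the gene were still counted in mutants, with at least 1309 reads in each MT library. *fbn2a*, the other fibrillin in the table, had 1.44, 0.199, and 1.33 CPM in MT libraries, against 2.60, 1.01, 0.956, and 0.726 CPM in WT libraries. Its groups overlapped, and its log2 fold change was -0.34 ± 0.48 (SE, FDR = 0.90). No gene of the table is named *fbn1*.

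**Figure D1:**
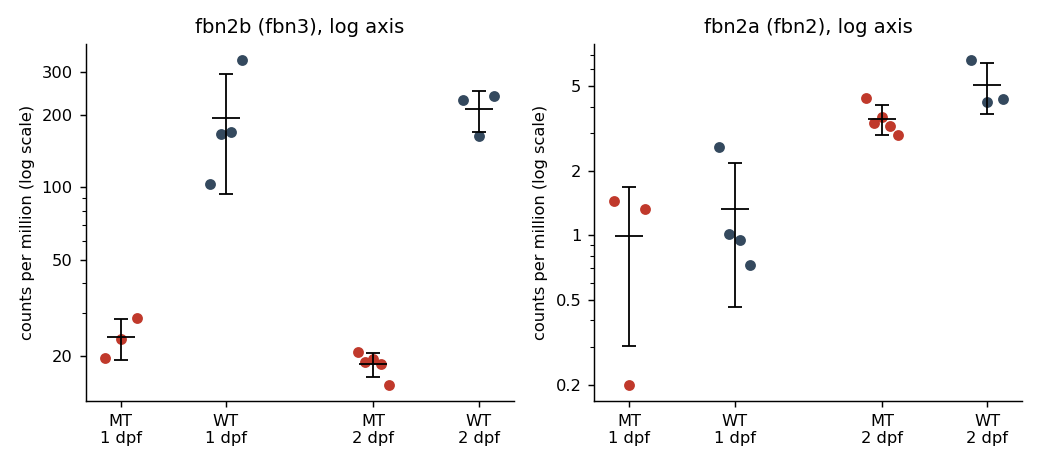
CPM (log axis) of *fbn2b* (left) and *fbn2a* (right) in each library of MT and WT at 1 dpf and at 2 dpf; points are libraries, and the black lines are the mean and the SD. The MT libraries of 1 dpf sit between 19.5 and 28.7 CPM for *fbn2b*, below the WT libraries between 103 and 337 CPM, whereas the groups overlap for *fbn2a* at 1 dpf.

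Total counts of the 1 dpf libraries ranged from 66070904 to 101620834 in MT and from 41473603 to 77233445 in WT. Of 25 markers of embryonic tissues that the table holds, 22 had 10 CPM or more in all 7 libraries, and *hbbe1.1*, *mpx*, and *mpeg1.1*, markers of red cells, neutrophils, and macrophages, were lower. The library names carry a running number, which was divided here into lower and upper numbers between MT replicate 3 and WT replicate 4 of 1 dpf. These libraries have consecutive numbers, so the numbers show no gap at this cut, and the labels name no batch. At 1 dpf the 3 MT libraries and WT replicates 1 and 2 fall in the lower numbers, and WT replicates 4 and 5 fall in the upper numbers. Whether the libraries on either side of the cut were handled apart was not tested. When the 1 dpf libraries were placed by multidimensional scaling, WT replicates 4 and 5 stood apart on the leading axis (33.5%). With the libraries of both stages placed together, the second axis (11.7%) split them at this same cut. Lower-numbered libraries lay at 0.397 to 1.18 on it, and upper-numbered libraries at -1.40 to -1.01. The main fit holds no term for the library numbers, and the part of this split in the results was not tested. Each library was also placed between WT at 1 dpf (0) and WT at 2 dpf (1) by the 1000 genes with the lowest *P* between these WT groups. This stage position was 0.060, -0.083, and -0.11 in MT replicates 1, 2, and 3, against 0.052, -0.0048, -0.0094, and -0.038 in WT replicates 1, 2, 4, and 5. MT replicate 1 thus lay above all WT libraries, and MT replicates 2 and 3 lay below all of them. Because many tissue genes change with age, results are given below with the values of single MT libraries. Some medians are also given from a fit with the stage position as a covariate. The position comes from these same libraries, and its genes may include list members, so that fit is a description. The part of the stage position in these results was not tested.

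Of 23555 genes tested, 1 gene (0.00425%) was differentially expressed in MT at 1 dpf, at FDR under 0.05 and absolute log2 fold change above 1, and this was *fbn2b* itself. At an unadjusted *P* under 0.05, 779 genes (3.31%) were higher and 950 genes (4.03%) were lower in MT. With 23555 tests, such counts are a background for the gene lists that follow and not calls. The MT libraries all lay above the WT libraries at 681 genes (2.89%) and all below them at 705 genes (2.99%). The median log2 fold change over all genes was -0.03, and 44.9% of them were higher in MT. Other tests called more genes, 49 with DESeq2 (0.208%) and 38 with edgeR's likelihood ratio test (0.161%), of which 32 were called by both. Without MT replicate 1, the quasi-likelihood test called 52 genes (0.217%). That fit left only MT replicates 2 and 3, and each fit that left out a different 1 dpf library called 1 or 2 genes. The genes named below as called without MT replicate 1 were called in none of those other fits. Below, log2 fold changes are from the quasi-likelihood fit of all libraries, and apart from *fbn2b* none passed its FDR.

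Apart from *fbn2b*, the gene with the lowest *P* among those named for non-overlapping libraries was *cyp27a1.4*, a cytochrome P450 of the family that hydroxylates the sterol side chain. It had 0.298, 0.275, and 0.319 CPM in MT, against 1.33, 2.53, 5.29, and 3.39 CPM in WT. The MT libraries were nearly equal, and WT replicate 1 was the lowest of the WT libraries. The log2 fold change was -3.41 ± 0.54 (SE), with FDR = 0.14 in the quasi-likelihood test, 5.9e-06 by likelihood ratio, and 1.5e-08 with DESeq2. *cracr2ab*, a relative of the regulators of calcium release-activated channels, had 0.566, 0.275, and 0.349 CPM in MT, against 2.01, 1.33, 2.01, and 1.14 CPM in WT, a log2 fold change of -2.05 ± 0.34 (SE).

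*ftcd*, the folate-dependent enzyme at the end of histidine breakdown, had 20.8, 9.89, and 10.9 CPM in MT, against 29.8, 24.2, 40.7, and 31.3 CPM in WT. Its log2 fold change was -1.19 ± 0.24 (SE, FDR = 0.32), and -1.59 without MT replicate 1 (FDR = 0.0069). Over the fits without 1 of the 1 dpf libraries it ranged from -1.59 to -0.996. *coq9*, which takes part in the synthesis of ubiquinone, had 8.98, 7.55, and 12.1 CPM in MT, against 25.2, 15.3, 30.1, and 14.03 CPM in WT. *tmie*, a part of the mechanotransduction channel of hair cells, had 0.923, 0.856, and 0.738 CPM in MT, against 1.44, 1.85, 1.48, and 1.11 CPM in WT. That each MT library lay below all WT libraries follows from the rule by which these 3 genes were named.

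The genes at the other end had smaller differences. *jupb*, a gene of plakoglobin, which joins cadherins to the cytoskeleton at desmosomes, had 2.98, 4.56, and 3.54 CPM in MT, against 1.81, 2.17, 1.91, and 1.33 CPM in WT, a log2 fold change of 1.00 ± 0.21 (SE, FDR = 0.32). *sema3h*, a secreted guidance cue of the semaphorin family, had 2.203, 3.38, and 3.75 CPM in MT, against 1.64, 1.87, 1.80, and 1.52 CPM in WT. *mark1*, a kinase of microtubule-associated proteins, was the most even of these genes within each group, with 9.57, 9.95, and 9.67 CPM in MT, against 6.73, 6.98, 7.19, and 7.65 CPM in WT.

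*mmp15b*, a membrane-bound matrix metalloproteinase, had 22.02, 29.9, and 35.7 CPM in MT, against 15.96, 18.7, 14.3, and 21.5 CPM in WT. *csrp1a*, a LIM protein of the cytoskeleton, had 40.7, 68.5, and 37.6 CPM in MT, against 34.2, 29.2, 29.9, and 21.4 CPM in WT. MT replicate 2 was the highest library for *csrp1a*, and MT replicate 3 for *mmp15b*. The others named by the same rule were *pgbd4*, *rras2*, *purbb*, and *abtb2a*, with log2 fold changes of 0.53, 0.39, 0.45, and 0.80.

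**Figure D2:**
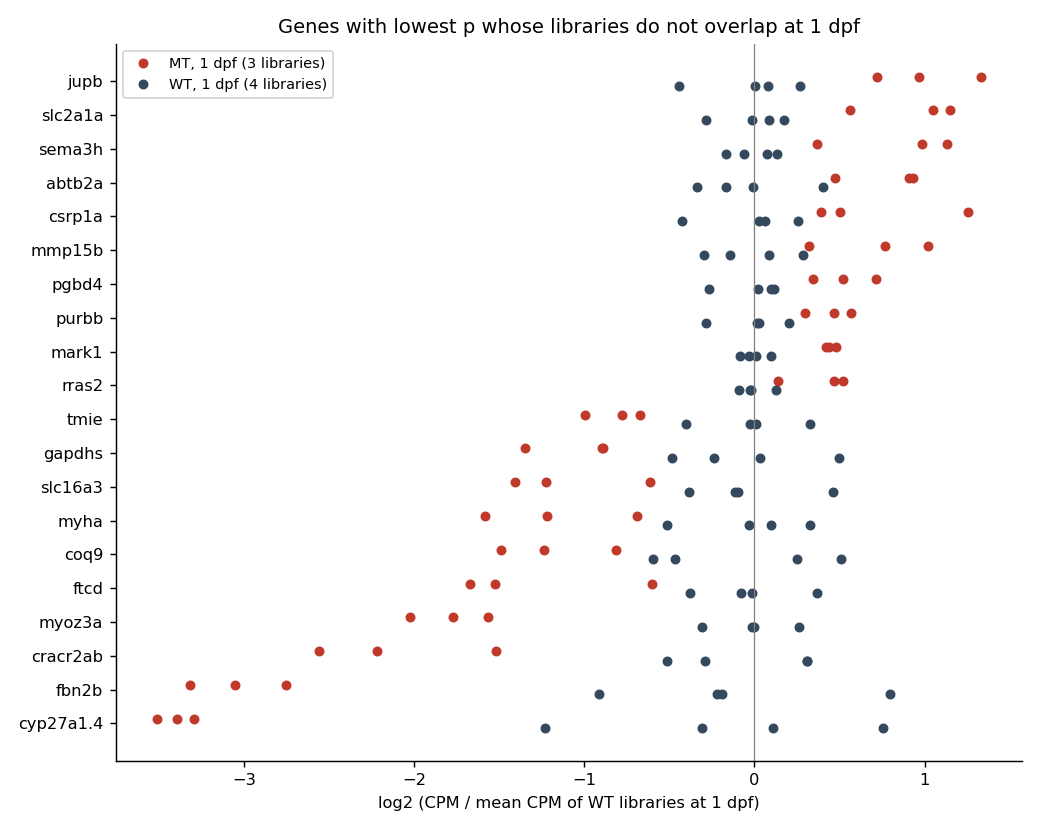
Level of the 20 genes with the lowest *P* among genes whose libraries did not overlap at 1 dpf, 10 in each direction; each point is 1 library, as the log2 of its CPM over the mean CPM of the WT libraries, with MT in red above WT in dark blue. The MT points of *cyp27a1.4* and *fbn2b* lie farthest to the left, and those of *mark1* cluster most tightly.

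In the unsegmented mesoderm of the tail, the genes of the segmentation clock had the highest median of all 49 lists. Of 30 tested genes, 21 had a positive log2 fold change, the median was 0.37 against -0.03 over all genes, and 11 were higher and 1 was lower at an unadjusted *P* under 0.05. No member was called, and at no member did all MT libraries lie beyond all WT libraries (above at 2.89% and below at 2.99% of all genes). The level of the list (mean log2 CPM relative to the WT mean) was -0.26, 0.54, and 0.82 in MT replicates 1, 2, and 3, against -0.21, 0.05, 0.07, and 0.09 in WT. MT replicates 2 and 3 were thus above all WT libraries, and MT replicate 1 was below all of them, the order opposite to that of the stage position. The median of the list was 0.13 with the stage position as a covariate, 0.15 with the CPM filter, 0.14 without MT replicate 3, and 0.54 without MT replicate 1.

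*mespab*, a transcription factor that sets the front of the next somite, had 0.327, 1.19, and 1.93 CPM in MT, against 0.219, 0.520, 0.485, and 0.653 CPM in WT, and a log2 fold change of 1.35 ± 0.41 (SE, FDR = 0.61). Its paralog *mespaa* had 0.0149, 0.917, and 1.38 CPM in MT, against 0.0437, 0.383, 0.194, and 0.242 CPM in WT. MT replicates 2 and 3 were the highest libraries for both genes, and MT replicate 1 was the lowest for *mespaa* but not for *mespab*. *her7*, an oscillating repressor of the clock, had 0.149, 2.26, and 2.51 CPM in MT, against 0.372, 0.629, 0.429, and 0.774 CPM in WT (chosen after its values were seen). *tbx6*, a T-box factor of the presomitic mesoderm, had 6.88, 29.2, and 40.4 CPM in MT, against 5.09, 9.71, 7.71, and 13.4 CPM in WT (chosen likewise).

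Without MT replicate 1, 6 members of the list were called, *her7*, *mespaa*, *her1*, *tbx16*, *mespab*, and *msgn1*, with log2 fold changes of 2.14, 2.34, 1.66, 1.29, 1.76, and 1.68. That fit, which leaves out the MT library with the lowest level of the list, called 0.217% of all genes. *her15.1*, a target of Notch that is also expressed in the neural tube, was the 1 member with *P* under 0.05 and a lower level, with a log2 fold change of -0.47 ± 0.20 (SE). Genes of the tail bud itself, where *tbxta* marks the growth zone, split the MT libraries in the same order, with smaller differences. Their level was -0.14, 0.11, and 0.37 in MT replicates 1, 2, and 3, against -0.08, 0.10, -0.02, and 0.002 in WT. Of 29 tested, 17 were higher, the median was 0.03, and only *ved*, a repressor of dorsal fate, had *P* under 0.05, with 1.76, 2.84, and 4.08 CPM in MT, against 2.098, 1.59, 1.302, and 1.38 CPM in WT. *tbxta* had 30.4, 31.3, and 37.6 CPM in MT, against 38.3, 35.3, 32.4, and 27.9 CPM in WT (chosen after its values were seen).

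Of 23 posterior Hox genes, which set position along the tail, 10 were higher and the median was -0.03. *hoxb13a*, the most posterior of its cluster, had 1.95, 2.23, and 2.62 CPM in MT, against 4.18, 5.14, 2.38, and 3.90 CPM in WT, with overlapping groups and a log2 fold change of -0.77 ± 0.26 (SE). Notochord and hedgehog genes were evenly divided, with 15 of 30 higher and a median of 0.00. Their only member with *P* under 0.05 was the cartilage matrix gene *matn3a*, which varied in both groups, with 2.34, 0.229, and 0.0798 CPM in MT, against 5.88, 2.94, 1.91, and 0.315 CPM in WT.

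The fin fold list holds the actinodins, structural proteins of the actinotrichia, and the Fraser proteins, which anchor epidermis to the matrix below. Of its 32 genes, 6 were higher and 4 lower at *P* under 0.05, against 3.31% and 4.03% of all genes, and the median was 0.05. *and1* had 46.9, 17.3, and 14.1 CPM in MT, against 128, 81.7, 25.4, and 38.9 CPM in WT, a log2 fold change of -1.39 ± 0.47 (SE, FDR = 0.61). *and2* had 17.8, 6.30, and 4.26 CPM in MT, against 55.6, 24.4, 8.60, and 10.4 CPM in WT, a log2 fold change of -1.40 ± 0.56 (SE). In both actinodins MT replicate 1 lay within the WT libraries and MT replicates 2 and 3 lay below them, and WT replicates 4 and 5 were below WT replicates 1 and 2. The third actinodin with *P* under 0.05, *and3*, had a log2 fold change of -1.74 ± 0.76 (SE), and was named after its value was seen. A fit of replicates 1 and 2 alone, with a term for the replicate number, called 104 genes. They include *and1*, *and2*, and *and3*, with log2 fold changes of -1.82, -1.77, and -2.36. That fit leaves out MT replicate 3 and WT replicates 4 and 5, the WT libraries lowest for *and1* and *and2*.

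Members of the list at higher levels included *fbln1* and *hmcn2*. *fbln1*, a fibulin of basement membranes, had 32.3, 55.9, and 60.0 CPM in MT, against 25.6, 38.0, 21.3, and 35.7 CPM in WT, a log2 fold change of 0.71 ± 0.23 (SE). *hmcn2*, a hemicentin, which in zebrafish mutants of its family is needed for fin fold integrity, had 0.848, 1.18, and 1.56 CPM in MT, against 0.656, 0.670, 0.706, and 0.847 CPM in WT. The groups of *hmcn2* met but did not overlap.

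Of 29 genes of microfibrils and elastic matrix, 16 were higher and the median was 0.00, with 5 higher and 4 lower at *P* under 0.05, the 4 including *fbn2b*. *efemp2a*, a fibulin that assists elastic fiber assembly, had 110, 214, and 251 CPM in MT, against 120, 146, 114, and 145 CPM in WT, and without MT replicate 1 its log2 fold change was 0.83 (FDR = 0.0089). *mfap5*, a microfibril-associated protein, had 0.119, 0.0459, and 0.169 CPM in MT, against 0.743, 0.643, 0.125, and 0.169 CPM in WT, where the lower-numbered WT libraries had the higher values. *mfap2*, its relative, had 89.2, 100, and 100 CPM in MT, against 106, 95.5, 111, and 111 CPM in WT (named after its values were seen). Among 50 collagen, laminin, and proteoglycan genes, 30 were higher, with a median of 0.14, and 5 were higher and 1 lower at *P* under 0.05. The hyaluronan synthase *has2* and the collagen gene *col7a1l* had log2 fold changes of 0.59 and 0.64, and the small proteoglycan gene *dcn* of -0.25. The median of this list was -0.04 without WT replicate 4 and 0.24 without WT replicate 5.

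Of 48 tested genes of the fast sarcomere, 5 were higher and 43 were lower in MT. Their median log2 fold change was -0.45, and 0 were higher and 6 lower at *P* under 0.05. The level of this list was 0.02, -0.50, and -0.65 in MT replicates 1, 2, and 3, against 0.62, 0.11, -0.21, and -0.52 in WT replicates 1, 2, 4, and 5, so the groups overlapped. The median was -0.62 among libraries with lower numbers, -0.17 without WT replicate 1, the library with the highest level, -0.25 without MT replicate 3, and -0.14 with the stage position as a covariate. In pooled embryos, fewer cells of a type and less RNA per cell cannot be told apart.

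*myha*, a fast myosin heavy chain, was the 1 member of the fast list whose groups did not overlap (lower in MT, against 2.99% of all genes). It had 9.53, 6.60, and 5.12 CPM in MT, against 15.02, 10.7, 16.4, and 19.3 CPM in WT, a log2 fold change of -1.12 ± 0.24 (SE, FDR = 0.32), with FDR = 0.0081 by likelihood ratio and 0.0029 with DESeq2. *actn3a*, the actinin of the fast Z-disc, had 447, 269, and 264 CPM in MT, against 748, 485, 442, and 305 CPM in WT. *myoz3a*, a Z-disc protein of the myozenin family and no member of the list, had 1.06, 0.917, and 0.768 CPM in MT, against 3.13, 2.53, 3.10, and 3.75 CPM in WT. Its log2 fold change was -1.78 ± 0.34 (SE), with FDR = 0.23 in the quasi-likelihood test and 0.00019 in the likelihood ratio test.

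Genes of muscle calcium handling and energy buffering gave a like picture, with 12 of 53 higher, a median of -0.34, and 1 higher and 10 lower at *P* under 0.05. *pvalb4*, a parvalbumin that binds calcium, had 29.98, 10.8, and 6.48 CPM in MT, against 68.9, 38.2, 33.5, and 19.5 CPM in WT. *mb*, myoglobin, had 5.49, 4.97, and 2.25 CPM in MT, against 11.7, 5.07, 8.93, and 8.397 CPM in WT. *hrc*, a calcium-binding protein of the sarcoplasmic reticulum, was the member higher at *P* under 0.05, with 2.60, 3.32, and 2.54 CPM in MT, against 1.70, 2.17, 1.63, and 1.89 CPM in WT. The list level was 0.02, -0.40, and -0.68 in MT, against 0.57, 0.09, -0.19, and -0.48 in WT, and its median was -0.09 without WT replicate 1, -0.18 without MT replicate 3, -0.52 without MT replicate 1, and -0.11 with the stage position as a covariate.

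Among slow fiber genes 6 of 24 were higher, the median was -0.29, and 2 were lower at *P* under 0.05, *tnni1d* and *tnnt2d*, both subunits of troponin, with log2 fold changes of -1.09 and -1.16. The slow fiber median was -0.10 without WT replicate 1 and -0.13 with the stage position as a covariate. Of 35 myogenic factors, 25 were higher, with a median of 0.09 and with 3 higher and 0 lower at *P* under 0.05. That median was 0.02 without MT replicate 3, 0.16 without MT replicate 1, 0.17 without WT replicate 2, and 0.04 with the stage position as a covariate. *myog*, the factor that drives myoblasts into differentiation, had 9.90, 23.4, and 23.3 CPM in MT, against 11.4, 10.9, 10.22, and 13.5 CPM in WT. It was called without MT replicate 1 (log2 fold change 1.03, FDR = 0.0069). *mef2d*, a cofactor of myogenesis, had 125, 204, and 221 CPM in MT, against 136, 133, 117, and 149 CPM in WT.

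Of 36 heart genes, 13 were higher and the median was -0.10 (0.02 among the lower library numbers and -0.05 without WT replicate 5), with 3 higher and 5 lower at *P* under 0.05. *nkx2.5*, a cardiac transcription factor, had 2.32, 2.51, and 2.60 CPM in MT, against 3.08, 2.97, 4.099, and 3.12 CPM in WT, a log2 fold change of -0.43 ± 0.16 (SE). *tnni1b*, a troponin I of the embryonic heart, had 13.8, 16.6, and 16.2 CPM in MT, against 19.96 to 20.8 CPM in the 4 WT libraries. The levels of these 2 genes did not overlap between the groups and did not set MT replicate 1 apart in the direction of WT. Both were named for the lowest *P* among the lower members of the list. All MT libraries lay below all WT libraries at 3 members of the list and above them at 1, against 2.99% and 2.89% of all genes. *actn2b*, an actinin of heart and slow muscle, had 37.9, 38.7, and 37.9 CPM in MT, against 19.8, 33.6, 33.3, and 23.9 CPM in WT, and *ryr2b*, a calcium release channel, had a log2 fold change of 0.54 ± 0.20 (SE).

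**Figure D3:**
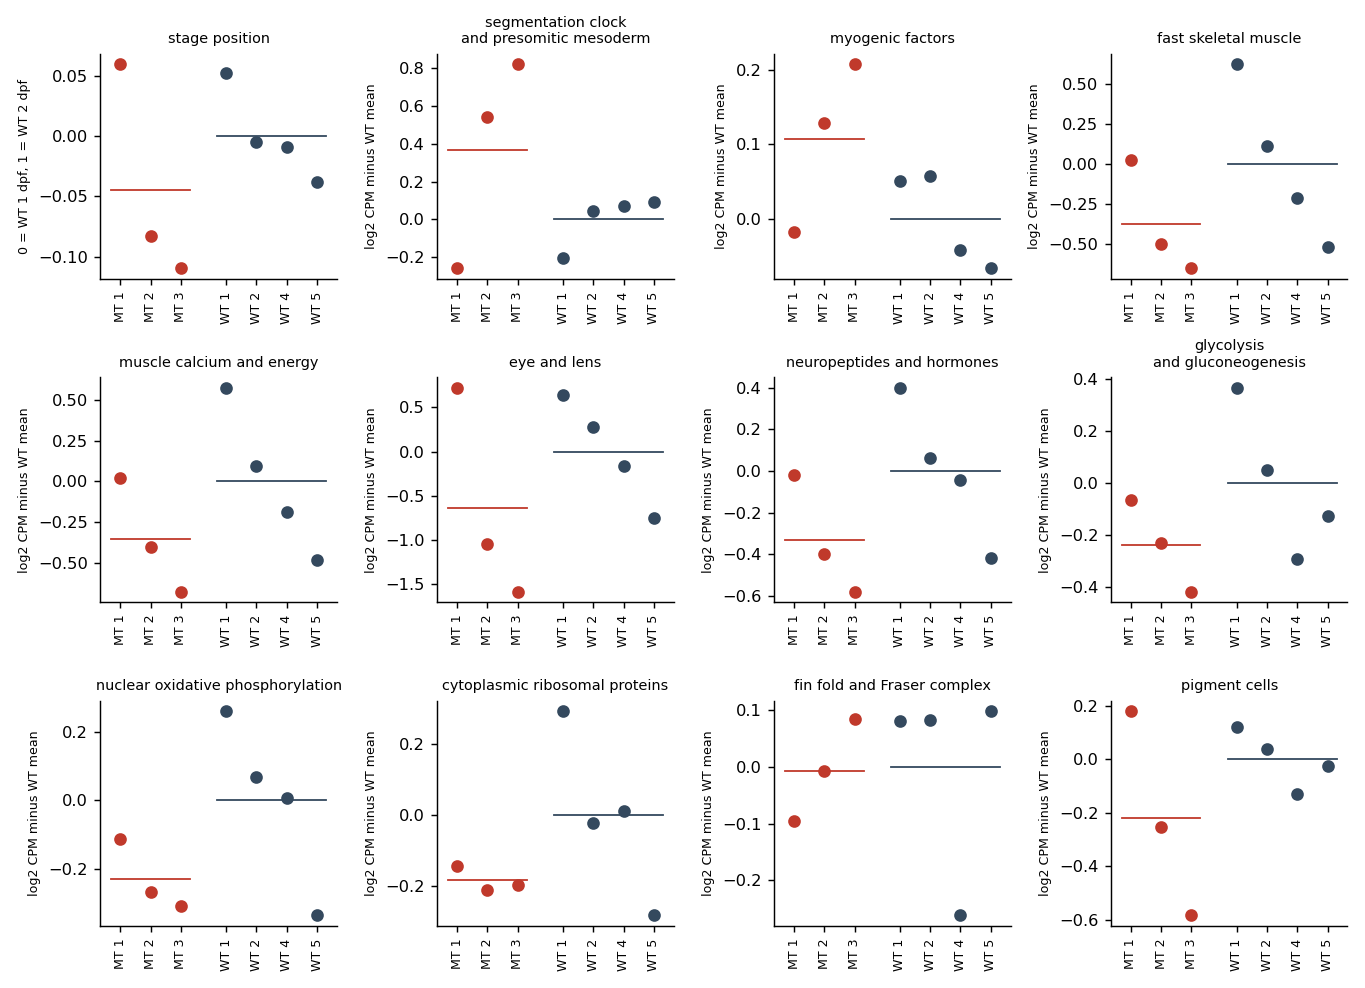
Stage position (first panel) and the level of 11 gene lists in each 1 dpf library, MT in red on the left and WT in dark blue on the right; a list's level is its mean log2 CPM minus the WT mean, and the lines are group means. MT replicate 1 sits apart from MT replicates 2 and 3 for the segmentation clock (-0.26 against 0.54 and 0.82) and for eye and lens (0.73 against -1.05 and -1.59), while the 3 MT libraries lie close together for cytoplasmic ribosomal proteins.

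Genes of sugar breakdown were mostly at lower levels in MT. Of 60 genes of glycolysis and gluconeogenesis, 13 were higher and 47 lower, with a median of -0.26, and 1 was higher and 12 were lower at *P* under 0.05. The MT libraries lay below all WT libraries at 5 members and above them at 1, against 2.99% and 2.89% of all genes. *gapdhs*, a glyceraldehyde-3-phosphate dehydrogenase, had 91.2, 91.6, and 66.7 CPM in MT, against 240, 174, 144, and 121 CPM in WT, a log2 fold change of -1.03 ± 0.19 (SE, FDR = 0.21). The likelihood ratio test and DESeq2 called it, with FDR of 0.00079 and 0.0002, and so did the fit of the lower library numbers alone (FDR = 0.036). *slc16a3*, a transporter that exports lactate, had 8.63, 5.67, and 5.00 CPM in MT, against 18.2, 12.4, 10.12, and 12.2 CPM in WT, a log2 fold change of -1.04 ± 0.22 (SE, FDR = 0.32). Without MT replicate 1 it was called, at FDR = 0.026. Over the fits without 1 of the 1 dpf libraries its log2 fold change ranged from -1.31 to -0.86.

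The 1 member of this list higher at *P* under 0.05 was *slc2a1a*, the glucose transporter GLUT1. It had 51.0, 76.7, and 71.5 CPM in MT, against 36.7, 38.9, 34.2, and 28.4 CPM in WT, and a log2 fold change of 0.94 ± 0.23 (SE, FDR = 0.46). Further glycolytic genes, chosen after their values were seen, were *pgk1*, the kinase that yields ATP in the pathway, with 88.9, 82.4, and 54.0 CPM in MT, against 179, 104, 90.2, and 104 CPM in WT, and *eno1b*, an enolase, with 2.62, 2.51, and 2.09 CPM in MT, against 4.57, 3.51, 3.38, and 3.99 CPM in WT. WT replicate 1 was the highest library for *gapdhs*, *slc16a3*, *pgk1*, and *eno1b*. The list level was -0.06, -0.23, and -0.42 in MT, against 0.37, 0.05, -0.29, and -0.13 in WT, and the median was -0.17 without WT replicate 1 and -0.16 with the stage position as a covariate.

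Of 86 nuclear genes of oxidative phosphorylation, 1 was higher and the rest were not, with a median of -0.20, and 18 were lower at *P* under 0.05 against 4.03% of all genes. Their differences were small. *ndufb11* and *ndufa9a*, subunits of complex I, had log2 fold changes of -0.32 ± 0.10 and -0.24 ± 0.08 (SE). *ndufb11* had 15.9, 14.3, and 14.6 CPM in MT, against 20.2, 17.8, 19.7, and 16.7 CPM in WT. The list level was -0.11, -0.27, and -0.31 in MT, against 0.26, 0.07, 0.01, and -0.34 in WT, so WT replicate 5 was the lowest of all libraries. The median was -0.30 without WT replicate 5 and -0.10 with the stage position as a covariate. Members of a list like this move together from library to library, and the number lower at *P* under 0.05 is a description of these 7 libraries.

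All 13 genes of the mitochondrial genome had negative log2 fold changes, with a median of -0.36, and 1 of them, *mt-co2*, a subunit of cytochrome oxidase, was lower at *P* under 0.05 (-0.47 ± 0.20, SE). Their level was -0.10, -0.72, and -0.20 in MT, against 0.04, -0.11, 0.47, and -0.39 in WT, and the median was -0.20 without MT replicate 2 and -0.20 without WT replicate 4. Pyruvate dehydrogenase and citric acid cycle genes had a median of -0.09, with 12 of 42 higher and 0 higher and 8 lower at *P* under 0.05. *sdhb*, a subunit of succinate dehydrogenase, had 91.9, 85.7, and 78.2 CPM in MT, against 115, 102, 120, and 99.1 CPM in WT. *mdh1aa*, a malate dehydrogenase, had a log2 fold change of -0.43 ± 0.13 (SE).

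Glycogen genes had 11 of 32 higher and a median of -0.17, with 3 lower at *P* under 0.05, among them *pgm1* (phosphoglucomutase, -0.57 ± 0.16, SE) and *ugp2a* (UDP-glucose pyrophosphorylase, -0.60 ± 0.23, SE). The glycogen median was -0.05 without WT replicate 1, -0.11 without MT replicate 3, -0.26 without WT replicate 5, and -0.07 with the stage position as a covariate. Fat and sterol genes showed no such lean. Of 59 genes of fatty acid synthesis and oxidation 29 were higher, with a median of -0.01. *slc25a20*, the carnitine carrier of mitochondria, had 91.2, 90.2, and 77.7 CPM in MT, against 114, 112, 123, and 116 CPM in WT, with no overlap and little spread in WT. *acadl*, an acyl-CoA dehydrogenase, had a log2 fold change of -0.55, and *cd36*, a fatty acid receptor, of 1.26 with 1.25, 2.37, and 3.37 CPM in MT, against 0.918, 1.93, 0.554, and 0.363 CPM in WT.

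Of 32 genes of cholesterol synthesis 16 were higher, with a median of 0.01, and *scap*, a sterol-sensing escort protein, was higher at *P* under 0.05 (0.37 ± 0.15, SE). Amino acid and one-carbon genes had a median of -0.11 with 15 of 56 higher and 5 lower at *P* under 0.05, led by *pycr1b*, an enzyme of proline synthesis, with 28.95, 20.99, and 21.96 CPM in MT, against 38.4, 32.7, 44.8, and 36.5 CPM in WT. The aminotransferase gene *got2b* had a log2 fold change of -0.31. Purine and pyrimidine synthesis also had a median of -0.11, with 8 of 38 higher and 4 lower at *P* under 0.05, including *prps1b* (-0.40) and *uprt* (-0.25).

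Of 78 cytochrome P450 genes, 28 were higher, the median was -0.10, and 2 were higher and 5 lower at *P* under 0.05. Besides *cyp27a1.4*, *cyp4v7*, a member of a family that oxidizes fatty acids, had 2, 5, and 1 reads in the MT libraries, against 62, 63, 281, and 71 reads in the WT libraries. With so few reads in MT no fold is given, and its FDR was 0.61 in the quasi-likelihood test and 0.018 in the likelihood ratio test. *cyp2aa3* had 108, 96.7, and 98.5 CPM in MT, against 55.4, 87.4, 68.5, and 75.2 CPM in WT. *cyp2x9* had a log2 fold change of 1.47 ± 0.57 (SE), with overlapping groups. Reads of close relatives in the CYP2 clusters could have been assigned to either copy.

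Of 83 cytoplasmic ribosomal protein genes, 1 was higher, with a median of -0.20, 0 higher and 1 lower at *P* under 0.05, and a list level of -0.14, -0.21, and -0.20 in MT, against 0.29, -0.02, 0.01, and -0.28 in WT. The 3 MT libraries were closer to each other than the WT libraries were. The median was -0.096 without WT replicate 1, -0.105 with the stage position as a covariate, and -0.305 among the lower library numbers. *rpl12* was the member lower at *P* under 0.05, with 1224, 1154, and 1382 CPM in MT, against 1769, 1732, 2318, and 1639 CPM in WT. Mitochondrial ribosomal proteins had 4 of 74 higher and a median of -0.11, with *mrpl16* (-0.18) and *mrpl42* (-0.31) lower at *P* under 0.05. Ribosome biogenesis factors had 59 of 86 higher and a median of 0.06, with 0 in either direction at *P* under 0.05. DNA replication and mitosis genes had 22 of 104 higher and a median of -0.08, also with 0 in either direction, and proteasome genes had 10 of 51 higher and a median of -0.10, with 1 higher at *P* under 0.05, the low-count subunit gene *psmb12* (1.22 ± 0.52, SE). The replication and proteasome medians were -0.011 and -0.007 without WT replicate 4, and that of replication was 0.002 among the lower library numbers. The ribosome biogenesis median was 0.17 without MT replicate 1 and -0.03 without MT replicate 3.

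In the nervous system, 12 of 70 neuron and synapse genes were higher, with a median of -0.19 and 0 higher and 7 lower at *P* under 0.05. *nefma*, a neurofilament gene, had 10.8, 6.31, and 5.03 CPM in MT, against 14.2, 10.8, 8.12, and 11.1 CPM in WT. *cplx2*, a complexin of synaptic vesicles, had 3.89, 2.71, and 5.47 CPM in MT, against 6.47, 5.36, 6.09, and 6.34 CPM in WT. The median was -0.35 without MT replicate 1, -0.10 without MT replicate 3, and -0.06 with the stage position as a covariate. Neural progenitor genes had 9 of 49 higher and a median of -0.11 (-0.02 without WT replicate 4), with 2 in each direction at *P* under 0.05. The Notch targets and receptors *hey1* and *notch2* had log2 fold changes of 0.41 and 0.34, and *sox21a* had -0.38. *her4.3* had 8, 2, and 9 reads in MT, against 2, 8, 413, and 127 reads in WT, so its difference was between WT replicates 4 and 5 and all other libraries, MT and WT, as the library numbers run.

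Neuropeptide and hormone genes had the lowest median of all lists, -0.48, with 9 of 42 higher and 1 higher and 5 lower at *P* under 0.05. Their level was -0.02, -0.40, and -0.58 in MT, against 0.40, 0.06, -0.04, and -0.42 in WT, and the median was -0.74 without MT replicate 1, -0.28 without MT replicate 3, and -0.16 with the stage position as a covariate. With the CPM filter, 23 neuropeptide and hormone genes remained. Their median was then -0.34 and not the lowest, against -0.45 for fast muscle and -0.41 for eye and lens. *galn*, a galanin gene, had 3.39, 1.51, and 1.81 CPM in MT, against 4.57, 3.47, 5.79, and 3.17 CPM in WT. *cart2*, a gene of the CART peptides that act on appetite, had 0 reads in all 3 MT libraries, against 7, 8, 10, and 1 reads in WT. The mean of the WT libraries lay 2.65-fold above a floor of 3 reads per MT library. WT replicate 5, with 1 read, lay below that floor, and counting error in WT is not covered by it. *agrp*, a peptide of appetite neurons, had 3.50, 3.49, and 2.54 CPM in MT, against 2.404, 2.503, 1.43, and 1.79 CPM in WT.

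The eye and lens list varied most among the libraries. Its level was 0.73, -1.05, and -1.59 in MT, against 0.64, 0.28, -0.16, and -0.76 in WT. MT replicate 1 was the highest and MT replicates 2 and 3 were the lowest of the 7 libraries. Of 83 genes 21 were higher, the median was -0.39, and 1 was higher and 3 lower at *P* under 0.05. The median was -1.96 without MT replicate 1, where 8 members were called (crystallins, lens gap junction genes, and *arr3a*), -0.16 without MT replicate 2, -0.00 without MT replicate 3, and -0.17 without WT replicate 1. The fit without MT replicate 1 called 0.217% of all genes. *cryba1l2*, a crystallin of the lens chosen after its values were seen, had 6.15, 0.627, and 0.309 CPM in MT, against 5.62, 3.86, 2.74, and 2.44 CPM in WT. *rbp3*, a retinoid-binding protein of photoreceptors and the pineal, showed no such split, with 0.0744, 0.0764, and 0.0997 CPM in MT, against 0.328, 0.328, 0.623, and 0.290 CPM in WT. It was called by the likelihood ratio test (FDR = 0.00046) and had a log2 fold change of -2.24 ± 0.49 (SE) in the quasi-likelihood fit (FDR = 0.33). The MT values of *rbp3* rest on few reads, which limits both the fold and the view of a split. *crybb3* was the member higher at *P* under 0.05 (0.79 ± 0.28, SE), and *arr3a*, a cone arrestin, had -1.45 ± 0.64 (SE).

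Pigment cell genes had 11 of 41 higher, a median of -0.12 (-0.24 without MT replicate 1 and -0.05 without MT replicate 3), and 3 lower at *P* under 0.05. *tyr*, tyrosinase, the first enzyme of melanin synthesis, had 36.5, 26.6, and 21.6 CPM in MT, against 35.0, 31.8, 40.4, and 44.3 CPM in WT, and *mlphb*, a melanosome transport gene, had a log2 fold change of -0.46. Without MT replicate 1, 4 members were called (against 0.217% of all genes), *tyrp1a*, *pmelb*, *mc1r*, and *dct*, with log2 fold changes of -1.30, -1.13, -1.85, and -1.17. Neural crest genes had 19 of 33 higher and a median of 0.02, with 4 higher and 1 lower at *P* under 0.05. *sox10*, a factor of neural crest, had 39.4, 48.0, and 44.5 CPM in MT, against 33.6, 34.1, 31.3, and 42.8 CPM in WT, *erbb3b*, a receptor of crest and glia, had a log2 fold change of 0.39, and *prrx1b* had -0.29.

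Genes of the yolk syncytial layer, liver, and plasma had 20 of 62 higher and a median of -0.19, with 1 higher and 8 lower at *P* under 0.05. The MT libraries lay below all WT libraries at 9 members and above them at 1, against 2.99% and 2.89% of all genes. *ambp*, the precursor of a plasma protease inhibitor, had 32.2, 22.2, and 20.8 CPM in MT, against 57.8, 39.3, 32.8, and 48.1 CPM in WT, a log2 fold change of -0.83 ± 0.23 (SE). *vtnb*, a vitronectin, had 42.5, 29.9, and 32.5 CPM in MT, against 50.2, 46.2, 45.0, and 56.9 CPM in WT. *fga*, the fibrinogen alpha chain, was at a higher level in each MT library, with 150, 130, and 130 CPM in MT, against 102, 119, 99.3, and 95.9 CPM in WT. The list level was -0.01, -0.09, and -0.28 in MT, against 0.15, 0.06, -0.13, and -0.07 in WT, and its median was -0.07 without MT replicate 3 and -0.15 with the stage position as a covariate.

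Pancreas and gut genes had 8 of 36 higher and a median of -0.26, with 2 lower at *P* under 0.05. *ins*, insulin, had 2.96, 3.18, and 2.47 CPM in MT, against 5.81, 3.98, 4.43, and 3.05 CPM in WT, and *pax4*, an islet factor, had a log2 fold change of -0.86. Pronephros genes had 23 of 42 higher and a median of 0.02, with *slc12a3*, a salt transporter, at 33.6, 49.5, and 35.8 CPM in MT, against 31.7, 32.4, 22.5, and 23.9 CPM in WT. *slc3a1* and *lhx1a* had log2 fold changes of 0.47 and -0.44.

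Blood lists gave few members past an unadjusted *P* of 0.05. Of 43 globin and erythroid genes 24 were higher, with a median of 0.07, and 1 was lower, *rhag*, a gas channel of red cells, with 41.1, 26.7, and 21.9 CPM in MT, against 50.03, 43.3, 40.4, and 41.0 CPM in WT. The sign of that median turned with the libraries used, at -0.13 among the lower library numbers. White cell markers had 9 of 30 higher and a median of -0.09 (0.01 without MT replicate 3 and -0.24 without MT replicate 1), with *ctss2.1*, a cathepsin S gene of macrophages, higher at *P* under 0.05 (0.54 ± 0.23, SE). For comparison, 22 of 39 endothelial genes were higher, with a median of 0.03, and 1 was higher (*she*, 0.39) and 3 lower at *P* under 0.05. *plvapb*, a protein of endothelial diaphragms, had 18.3, 13.8, and 12.5 CPM in MT, against 25.3, 22.8, 21.9, and 18.7 CPM in WT, and *pecam1*, an adhesion molecule, had a log2 fold change of -0.49.

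Epidermal and keratin genes had 32 of 51 higher and a median of 0.08, with 2 higher at *P* under 0.05. *cyt1*, a type I keratin, had 2600, 2411, and 1719 CPM in MT, against 1944, 1580, 1016, and 1692 CPM in WT, and *anxa1b*, an annexin, had a log2 fold change of 0.62. Of 38 ionocyte and mucous cell genes 19 were higher, with a median of 0.01 and *slc4a1b*, an anion exchanger, higher at *P* under 0.05 (0.45 ± 0.13, SE). Hatching gland genes had 9 of 16 higher and a median of 0.06. *he1.2*, a hatching enzyme, had 281, 128, and 180 CPM in MT, against 311, 246, 525, and 428 CPM in WT, and a second, low-count copy of *ctslb* had 2.32, 0.0306, and 0.359 CPM in MT, against 0.568, 0.0547, 0.0969, and 0.266 CPM in WT.

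Heat shock proteins had a median of -0.06 (14 of 40 higher) and 1 higher and 2 lower at *P* under 0.05, with *dnajb5* at 0.40 and the muscle genes *hspb2* at -1.60 and *hspb7* at -0.26. The unfolded protein response had a median of -0.02 (18 of 41 higher) and 0 higher and 2 lower at *P* under 0.05, with *hsp90b1*, the chaperone GRP94, at -0.37 and *atf4a* at -0.24. The p53 response had a median of -0.14 (12 of 33 higher), with 1 higher and 4 lower at *P* under 0.05, against 3.31% and 4.03% of all genes. In all MT libraries, 2 members lay higher and 4 lower than in all WT libraries, against 2.89% and 2.99% of all genes. That median was -0.06 without MT replicate 2 and -0.03 without MT replicate 3. *cdkn1a*, the cell cycle inhibitor p21, had 4.36, 2.94, and 3.68 CPM in MT, against 7.72, 4.58, 5.32, and 5.25 CPM in WT, *casp8* had a log2 fold change of -0.55, and *phlda3* of 0.36. The hypoxia response had a median of -0.12 (13 of 45 higher) and 1 higher (*slc2a1a*) and 2 lower at *P* under 0.05, with *hif1aa* at -0.54 and *egln2* at -2.13, a value set by WT replicate 5, since *egln2* had 1.09, 0.581, and 1.16 CPM in MT, against 0.612, 1.63, 2.22, and 13.3 CPM in WT. Immediate early genes had 0 members at *P* under 0.05 and a median of -0.03. Their level differed widely between libraries, at 0.43, -0.51, and -0.26 in MT, against -0.07, -0.09, -0.25, and 0.41 in WT. That median was -0.31 without MT replicate 1 and 0.08 without MT replicate 2. Circadian genes had 26 of 42 higher and a median of 0.06, with 4 higher and 1 lower at *P* under 0.05, among them *per1b* and *per3*, repressors of the clock, at 0.54 and 0.53, and *nfil3* at -0.24. Targets of BMP, TGF-beta, Wnt, and Yap signals, which bear on the growth factor side of fibrillin function, had 26 of 58 higher and a median of -0.03, with 1 in each direction at *P* under 0.05, *notum1a*, a feedback inhibitor of Wnt, at 0.38 and *grem2b*, an antagonist of BMP, at -0.44.

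**Figure D4:**
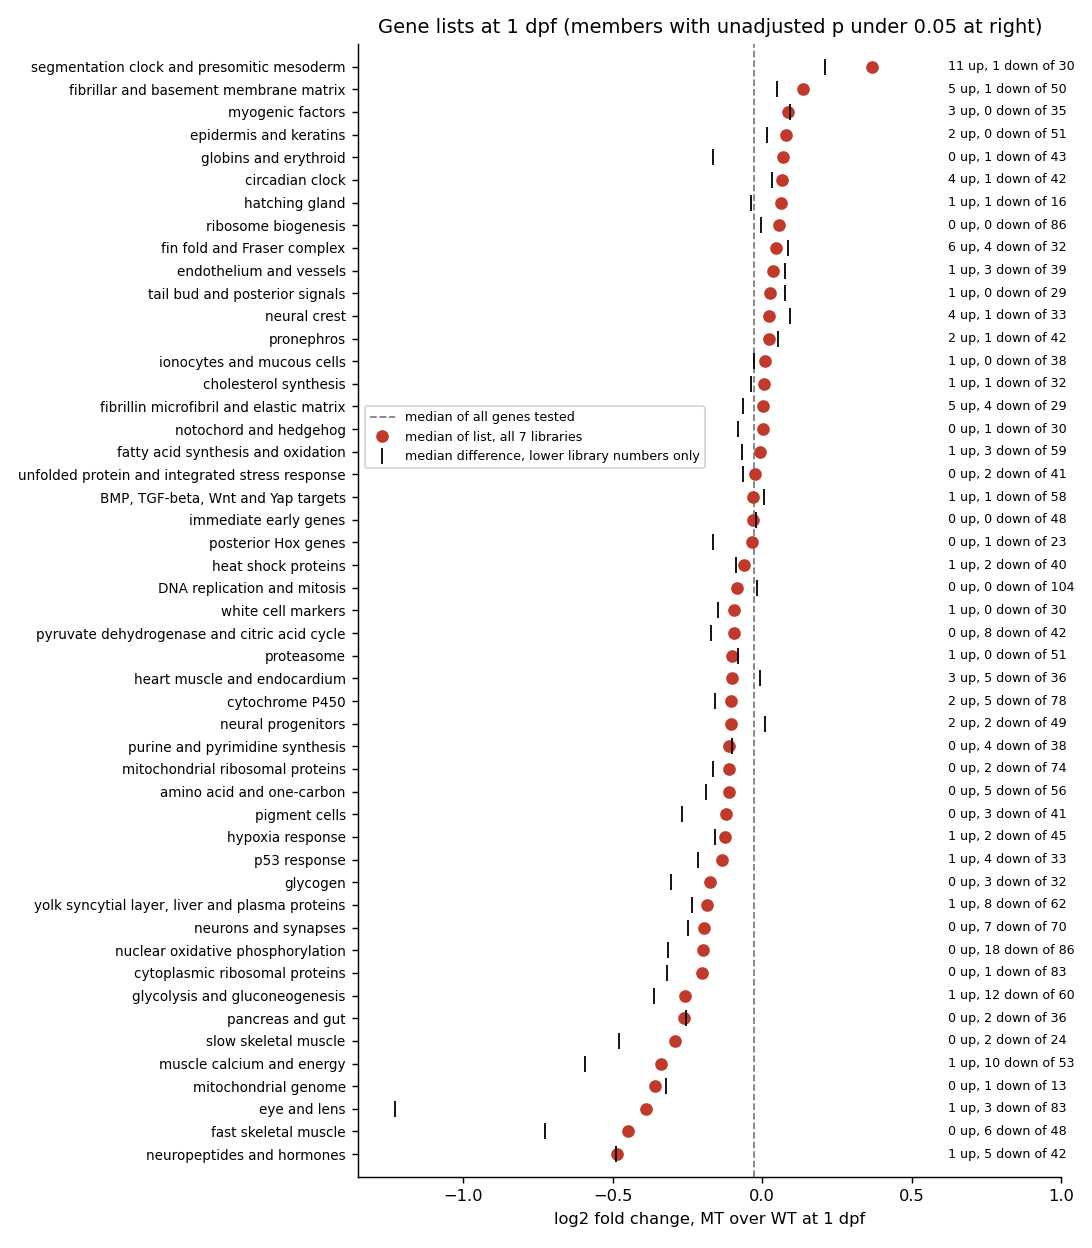
Median log2 fold change (MT over WT, 1 dpf) of each of the 49 gene lists, ordered by median, as red points for all libraries and black ticks for the median difference of mean log2 CPM between MT and WT libraries with lower numbers; the dashed line is the median of all genes tested (-0.03), and the text at right counts members at unadjusted *P* under 0.05. The segmentation clock is at the top with 0.37, and muscle, eye, and neuropeptide lists are at the bottom.

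The same contrast at 2 dpf rests on 8 other libraries, 5 MT and 3 WT, and shares none with 1 dpf. At 2 dpf, MT replicates 1, 2, and 3 and WT replicate 1 fall in the lower library numbers, and the other libraries in the upper numbers. The lower numbers thus hold a larger share of the MT than of the WT libraries at both stages. Their part in signs shared between the stages was not tested. There, 42 genes were differentially expressed (0.178%), and 1459 genes (6.19%) were higher and 987 genes (4.19%) lower at an unadjusted *P* under 0.05. *fbn2b* had a log2 fold change of -3.51 ± 0.27 (SE) at 2 dpf. Of the 779 genes higher at 1 dpf at *P* under 0.05, 514 (65.98%) had the same sign at 2 dpf, against 60.14% of all genes that were higher at 1 dpf. Of the 950 lower genes, 666 (70.11%) had the same sign at 2 dpf, against 55.34% of all lower genes. In the direction seen at 1 dpf, 86 of the higher genes (11.04%) and 109 of the lower genes (11.47%) also had *P* under 0.05 at 2 dpf, against 8.791% of all higher and 5.197% of all lower genes.

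Of the lowest-*P* genes with non-overlapping libraries, 9 of 10 higher and 9 of 10 lower genes kept their sign at 2 dpf. The lower genes that kept it include the mutated gene *fbn2b*. Most of the lowest-*P* genes were closer to 0 at 2 dpf. These genes were picked at 1 dpf, so smaller differences in other libraries can follow from that choice alone. *cyp27a1.4* had -1.24 at 2 dpf and -3.41 at 1 dpf, *coq9* had -0.56 and -1.15, *pgbd4* had 0.36 and 0.53, and *gapdhs* had -0.12 and -1.03. *pth1b*, a parathyroid hormone gene chosen after its values were seen, had 0.0893, 0.0764, and 0.150 CPM in MT at 1 dpf, against 1.03, 0.725, 0.512, and 0.629 CPM in WT, and its log2 fold change was -2.66 at 1 dpf and -2.75 at 2 dpf. Its MT values at 1 dpf rest on few reads, which limits the fold there. The test of a difference between stages called 1 gene (0.00425%), *cart3*, a CART peptide gene with a log2 fold change of 0.03 at 1 dpf and 2.56 at 2 dpf.

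The lists with the largest medians at 1 dpf were closer to 0 at 2 dpf. They were picked for their values at 1 dpf, so smaller values in other libraries can follow from that choice alone. The segmentation clock list had a median of -0.13 at 2 dpf, fast muscle 0.06, muscle calcium and energy 0.08, eye and lens 0.28, neuropeptides and hormones -0.02, glycolysis -0.03, and nuclear oxidative phosphorylation -0.01, against 0.01 over all genes. Whether these list medians differed between stages was not tested.

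**Figure D5:**
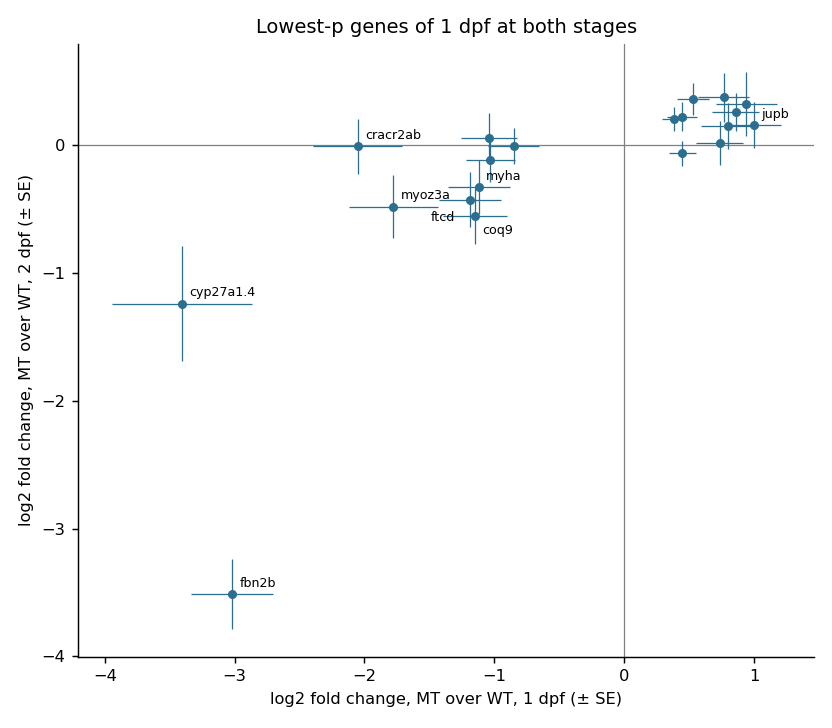
Log2 fold change (MT over WT) at 1 dpf (x axis) and at 2 dpf (y axis) of the 20 lowest-*P* genes of 1 dpf whose libraries did not overlap; lines are standard errors. *fbn2b* (-3.02 and -3.51) lies far from 0 on both axes, while *cracr2ab* and *gapdhs* lie near 0 at 2 dpf.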

How the data were processed

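Each stranded total RNA library was made from 10 embryos. Per the labels and the study's methods, the authors used FastQC 0.11.9, Trim Galore 0.6.6, STAR 2.7.6a, GRCz11, and featureCounts of Subread 2.0.0, and deposited whole-number counts per gene without normalization. The strand setting of the counting is not given in the sources used here, so overlapping and antisense genes, and near-identical copies, are uncertain. Of 23 count columns, 15 matched a listed sample by name, and 8 matched none and were not used.

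Genes were filtered with filterByExpr of edgeR 4.0.16 (minimum count 10, minimum total 15) in R 4.3.3, which left 23555 of 32520 genes. The 15 libraries of 4 groups were scaled with TMM and fitted together with the edgeR quasi-likelihood test, so WT and MT at 2 dpf also set the spread. *P* values were adjusted over all genes tested (Benjamini-Hochberg). A gene was called at FDR under 0.05 and absolute log2 fold change above 1, the study's thresholds. The counts given here are those of this fit and these libraries. The study, which also used edgeR, reports larger counts at both stages, and the reason for the difference was not tested. List levels used log2 CPM with a prior count of 2. Lists are described by counts and medians without a test of the list.

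Genes named were the fibrillins, all genes called, the 10 genes per direction with the lowest *P* among genes with non-overlapping groups, a mean of at least 1 CPM, and a gene symbol that is not a clone name, and up to 2 members per list and direction at unadjusted *P* under 0.05. Others are marked as chosen after their values were seen, and 1 gene under this rule is not reported here. The members and lists were chosen with earlier results of these data known.

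Alternatives were RLE and upper quartile scaling, DESeq2 1.42.0, the likelihood ratio test, limma-voom (limma 3.58.1), the legacy quasi-likelihood method, no filter, a filter of at least 1 CPM in at least 3 libraries, each stage alone, each library left out, the library number set as a covariate, lower library numbers only, and replicates 1 and 2 with and without a replicate block. A fit of 1 dpf with the stage position as covariate was added after seeing the data. The procedure was tested on simulated counts with the same spread at every gene and no stage shift within a group. Real pools differ in both ways, so that test gives no measure of power in these data. No 2 libraries of a group agreed within sampling noise. Floors of 3 counts cover only counting error, and only in MT.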

Additional observations from a re-analysis of the deposited data

Results flagged for a closer look

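Among 170 groups of WT libraries at 1 dpf examined (121 named genes and 49 gene lists), 9 had 1 library whose gap to the nearest other library took most of the range of the group, and chance alone gives about 1 in 20. For each, the gap as a share of the range of the 4 WT libraries follows. *fbn2a* had 0.847, with WT replicate 1 the highest at 2.60 CPM. *nkx2.5* had 0.864 and *rbp3* had 0.886, each with WT replicate 4 the highest, at 4.099 and 0.623 CPM, and *grem2b* had 0.929 with the same library the highest at 10.0 CPM. *casp8* had 0.873 and *egln2* had 0.874, each with WT replicate 5 the highest, at 9.49 and 13.3 CPM. Of the lists, the segmentation clock and presomitic mesoderm had 0.848, with WT replicate 1 the lowest at -0.21, and the fin fold and Fraser complex had 0.952 and epidermis and keratins 0.913, both with WT replicate 4 the lowest, at -0.26 and -0.39. No cause of these values was tested.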

How the results depend on the processing

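*fbn2b* was the 1 gene called at 1 dpf with RLE and upper quartile scaling, limma-voom, the legacy method, and both filters. More genes were called with DESeq2 (49) and the likelihood ratio test (38), 3 with the library number set as covariate, 15 with lower library numbers only, and 0 with each stage alone and with the stage position as covariate. With 1 library left out the count ranged from 1 to 52, and with WT replicate 1 left out it was 2. With replicates 1 and 2 alone, 4 genes were called with no replicate block and 104 with the replicate block. Only these 2 numbers occur in both groups at 1 dpf. The deviations of same-numbered libraries correlated at 0.16 and 0.02, and those of the other pairs of MT and WT libraries at -0.16 to 0.10. The labels do not say whether same-numbered libraries share more than a number, and this was not tested. *fbn2b* kept its direction in all 21 alternatives and missed the threshold in 3, each stage alone (FDR = 0.15), replicates 1 and 2 with no replicate block (FDR = 0.058), and the stage position as covariate (FDR = 0.051).

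Genes at unadjusted *P* under 0.05 numbered 1374 with each stage alone, 3241 with lower library numbers only, 1043 with the stage position as covariate, and 927 to 2901 with 1 library left out (961 without MT replicate 2, 927 without MT replicate 3, and 2901 without MT replicate 1). At 2 dpf the count of 42 was 107 with DESeq2, 93 with the likelihood ratio test, 13 with the legacy method, 25 with the CPM filter, 20 with the stage alone, 70 with the library number set as covariate, 17 with lower library numbers only, and 13 to 192 with 1 library left out, the highest without WT replicate 1. The count for a difference between stages was 32 with DESeq2, 28 with the likelihood ratio test, 3 with the library number set as covariate, 0 with lower library numbers only, and 1 to 5 with 1 library left out.

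*fbn2a* changed sign without MT replicate 2 (0.10), without WT replicate 1 (0.14), and with the stage position as covariate (0.0084), with a range of -0.64 to 0.14 over the fits without 1 library, and *mespaa* with the last (-0.40). List medians that moved by more than the spread between libraries were those of heart (0.02), neural crest (0.12), and endothelium (0.11) with lower library numbers only, eye and lens without MT replicate 1 (-1.96), and the p53 response without MT replicate 3 (-0.03). Differences smaller than the spread of 3 and 4 pools could not be resolved, and for genes with few reads the counts themselves limit the fold.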

Other observations

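The 52 genes called without MT replicate 1 include brain genes outside the lists, among them *lhx6* and *foxg1b*, transcription factors of the forebrain, with log2 fold changes of -1.70 and -1.24 in that fit. *lhx6* had 2.099, 0.673, and 0.538 CPM in MT, against 1.88, 2.11, 1.86, and 1.86 CPM in WT. *foxg1b* had 6.67, 2.35, and 2.36 CPM in MT, against 6.16, 4.94, 6.81, and 4.21 CPM in WT. The antioxidant enzyme genes *sod2* and *cat* were called in the same fit, at -1.19 and -1.01. MT replicate 1 lay within the WT libraries for these 4 genes, and only MT replicates 2 and 3 lay below them. The 52 genes and the 38 genes of the likelihood ratio test, which uses all libraries, have 9 genes in common, 17.3% of the 52 and 23.7% of the 38.

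*mhc2b*, annotated as a class II histocompatibility gene, was below the level required of a named gene and was singled out after its values were seen. It had 0.968, 1.22, and 2.15 CPM in MT, against 0.0874, 0.123, 0.277, and 0.145 CPM in WT, with a log2 fold change of 3.15 ± 0.59 (SE, FDR = 0.21) at 1 dpf and -0.09 at 2 dpf.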
